A study of Mus musculus with 6 samples.

Results

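The genes described here are 33 genes of fatty acid oxidation and of the peroxisome, chosen by symbol from the 24972 rows of a normalized RNA sequencing table, and all 33 were present. They were compared between bone marrow-derived macrophages of wild-type (WT) mice and of mice in which the lipocalin gene *Lcn10* is knocked out (Lcn10-KO), with 3 libraries of each genotype. The macrophages of both genotypes were grown from marrow in medium with serum and L929-cell supernatant, a source of macrophage colony-stimulating factor, and were otherwise untreated. The labels give neither the strain or age of the mice nor how the knockout was made, and nothing in them ties a library to its own mouse. The p-values therefore rest on the spread between libraries alone, some of which may be technical.

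Fatty acids are burned in steps. A synthetase joins the fatty acid to coenzyme A, the carnitine shuttle carries the long-chain acyl group into the mitochondrion, and repeated rounds of dehydrogenation, hydration, dehydrogenation and thiolysis release acetyl-CoA, while electron transfer flavoprotein passes electrons to the respiratory chain. Peroxisomes run a related cycle on very long and branched chains, with oxidases in place of the first dehydrogenase, and import their enzymes through peroxin proteins. Peroxisome proliferator-activated receptors (PPARs) are nuclear receptors that switch on many of these genes, and in macrophages they are also known for their part in lipid handling and in the alternatively activated state.

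Of the 33 genes, 32 passed the filter on low values (at least 10 normalized counts in at least 3 libraries). In Lcn10-KO, 3 of these were higher, 0 were lower and 29 did not pass the test. The 3 that rose were *Acsl3* and *Acsf2*, both acyl-CoA synthetases, and *Acox3*, a peroxisomal oxidase of branched-chain acyl-CoA. The test was limma on log2(value + 1) across all genes, with Benjamini-Hochberg adjusted p under 0.05 as the threshold, and fold changes are on that scale, as Lcn10-KO minus WT with the standard error (SE). Over all 12091 tested genes 9.84% were called, 4.70% higher and 5.14% lower, against 9.38% of these 32, so their share of calls was near that of the whole table. The rate-controlling enzyme *Cpt1a* and the medium-chain dehydrogenase *Acadm* had ratios of Lcn10-KO to WT of 0.986 and 0.998.

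The promoters of the 3 genes that rose are shown because they are the members the comparison picked out. Each line gives the 250 bases before the start site, 5′ to 3′ on the gene's strand, from RefSeq on GRCm38.p6. Capitals mark each GC box (GGGCGG on either strand, the core bound by Sp1-type factors) and each CCAAT box (CCAAT on either strand), and where the motifs touch or overlap the capitals run together.
*Acsl3* (chr1:78657575-78657824, plus strand): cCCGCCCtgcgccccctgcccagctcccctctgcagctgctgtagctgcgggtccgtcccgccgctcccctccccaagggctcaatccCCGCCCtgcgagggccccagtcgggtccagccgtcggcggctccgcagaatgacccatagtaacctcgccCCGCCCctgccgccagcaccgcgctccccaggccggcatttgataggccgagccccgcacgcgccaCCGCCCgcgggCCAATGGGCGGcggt
*Acsf2* (chr11:94601787-94602036, minus strand): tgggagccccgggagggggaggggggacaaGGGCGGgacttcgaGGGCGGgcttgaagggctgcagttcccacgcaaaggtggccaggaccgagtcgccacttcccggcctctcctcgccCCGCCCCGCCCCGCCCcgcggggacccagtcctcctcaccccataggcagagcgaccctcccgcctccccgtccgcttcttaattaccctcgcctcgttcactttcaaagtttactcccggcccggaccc
*Acox3* (chr5:35582784-35583033, plus strand): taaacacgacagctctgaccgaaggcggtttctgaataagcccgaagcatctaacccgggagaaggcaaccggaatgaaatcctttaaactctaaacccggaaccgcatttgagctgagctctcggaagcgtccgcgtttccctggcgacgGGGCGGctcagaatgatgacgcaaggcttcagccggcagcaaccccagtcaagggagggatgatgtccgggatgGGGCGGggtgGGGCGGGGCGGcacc
All 3 windows hold GC boxes, 5 matches in *Acsl3*, 5 in *Acsf2* and 4 in *Acox3*, counting overlapping matches separately, and *Acsl3* also has 1 CCAAT box, which touches the last GC box. GC boxes are common in this table of promoters. They were in 32.7% of all 32851 windows of this length and in 24 of the 34 windows of member genes, whose mean G and C content was 61.3% against 53.2% over all windows. Promoters of 29 of the 33 genes matched by symbol, some with more than 1 start site, and *Decr1*, *Acaa2*, *Hsd17b4* and *Ppargc1b* were without one.

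PPARs bind a direct repeat of the nuclear receptor core site with a spacer of 1 base. Searched on both strands as 2 copies of AGGTCA with any base between, that element was in 0 of the 34 member windows and in 0.0335% of all windows. The single core site, AGGTCA or its reverse TGACCT, was in 6 windows of 5 genes, 17.6% of the member windows against 14.02% of all windows. These matches are shown, with up to 10 bases on each side and the site in capitals, because the genes include the receptor *Pparg* itself and *Cpt1a*.
*Cpt1a* (site at chr19:3323207-3323212, 94 to 89 bases before the start): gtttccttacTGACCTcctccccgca
*Acadm* (chr3:153944887-153944892, 249 to 244 bases before): gTGACCTtcgggctccg
*Acadvl* (chr11:70015510-70015515, 87 to 82 bases before): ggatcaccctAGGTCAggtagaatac
*Echs1* (chr7:140116499-140116504, 83 to 78 bases before): cagcccgctcAGGTCAcgggtccacc
*Pparg*, upstream start (chr6:115361116-115361121, 28 to 23 bases before): ccgccgcctcAGGTCAgagtcgcccc
*Pparg*, next start (chr6:115362340-115362345, 9 to 4 bases before): ggacgcgaggAGGTCAaga
None of these 5 genes passed the test between genotypes. The CACGTG E-box and the longer lysosomal CLEAR element (the same letters with GT before and AC after) were in 0 of the 34 member windows, against 6.02% and 0.240% of all windows. A match is a string of letters in this window, and its absence says nothing of sites elsewhere or of sites with other letters. The PPAR repeat and the CLEAR element are so rare over all windows that 0 of 34 cannot set the members apart.

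The targeted gene and the identity of the cells were looked at next. *Lcn10* was listed at 0 in all 6 libraries and cannot check the genotype labels. The totals of the deposited, scaled values lay between 20476700 and 20636300 per library, and the labels do not state how the scaling was done. The value of a single read, 0.824 to 1.14, puts the depth at about 18010900 to 24844300 reads. All 11 macrophage markers were tested, and 4 were higher and 2 lower in Lcn10-KO, against 4.70% and 5.14% of all tested genes. Their summed level was 469838 to 481570 in WT and 504243 to 518181 in Lcn10-KO. Of 8 adipocyte markers, a cell type rich in the same enzymes, 7 were listed at 0 in every library, and the list summed to at most 13.6. The 8 endothelial markers summed to 1400.0 to 1600.3 in WT and 1512 to 2086 in Lcn10-KO, with 2 of 7 tested genes higher. The 9 stromal markers summed to 3041 to 4761 and 4005 to 4488, with 0 of 7 tested called, and the 9 neutrophil markers to 335 to 464 and 408 to 449, with 0 of 5 called. Dendritic cell markers (8) summed to 1354 to 2044 in WT and 1811 to 2319 in Lcn10-KO, with 0 of 1 tested called. B cell markers summed to 17.9 to 32.7 in WT and 33.6 to 40.1 in Lcn10-KO, and erythroid markers to 5.65 to 8.03 and 16.0 to 18.7. T and NK cell markers summed to 4.95 to 10.4 and mast cell or eosinophil markers to 6.84 to 26.1 over all libraries. The part of these other cells in the differences below was not tested. In bulk RNA, fewer cells of a type and less RNA per cell cannot be told apart.

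WT replicate 1 stood apart for these genes and also over all tested genes. Its Spearman correlations with the Lcn10-KO libraries over all tested genes were 0.9907 to 0.9925, against 0.9955 to 0.9967 for WT replicates 2 and 3. Those 2 WT libraries correlated with Lcn10-KO replicate 1 at 0.9966 and 0.9967, and with WT replicate 1 at 0.9951 and 0.9962. WT replicate 1 had the lowest value of all 6 libraries in 17 of the 32 tested members, whereas it was lowest in 27.6% of all tested genes. Within WT it was the lowest of the 3 libraries in 22 of 32 members (68.8%), against 37.4% of all tested genes. The median deviation of the members from the mean of all 6 libraries on the log2 scale was -0.07 in WT replicate 1, -0.02 in WT replicate 2 and -0.01 in WT replicate 3. In Lcn10-KO it was 0.04 to 0.06, while that of all genes was at most 0.0036 in any library. Summed over the 33 genes, WT replicate 1 held 40551 normalized counts, the other WT libraries 42700.5 and 42272, and the Lcn10-KO libraries 43436, 43612 and 43900.2. For genes with a log2 fold change over 0.1 in size that moved by over 1.5 times without this library, the value without it is given.

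**Figure D1:**
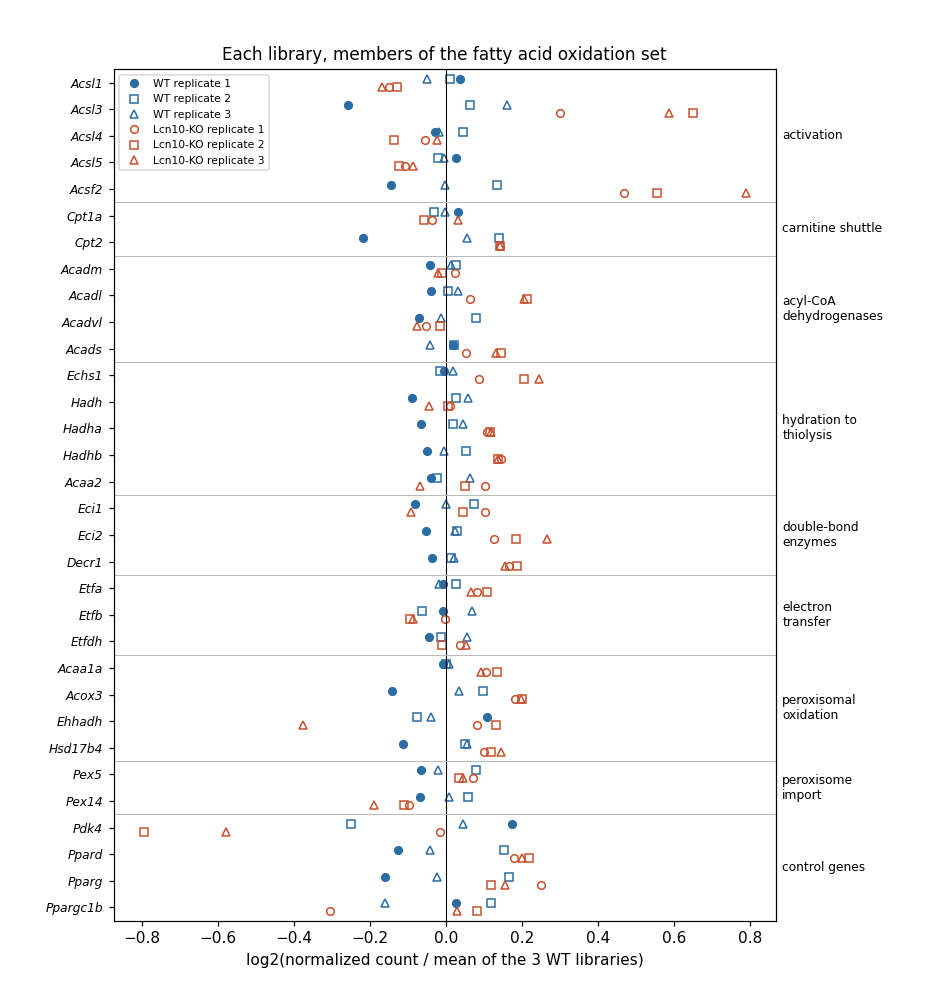
Each point is 1 library, as log2 of its normalized count over the mean of the 3 WT libraries, for the 32 tested members grouped by role, with WT in blue and Lcn10-KO in red. WT replicate 1 (filled) is the lowest library in 17 of the 32 members, against 27.6% of all tested genes. All Lcn10-KO points lie to the right of all WT points in 15 of the 32, against 15.5% of all tested genes.

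Activation of fatty acids held both of the largest called differences. *Acsl3* (ENSMUSG00000032883.15, chromosome 1, 78657825 to 78707743, GRCm38), a synthetase of the endoplasmic reticulum and lipid droplets, was at 453, 567 and 606 normalized counts in WT replicates 1 to 3 and at 667, 851 and 814 in Lcn10-KO replicates 1 to 3. The genotypes did not overlap, and WT replicate 1 was the lowest library. *Acsl3* rose by 0.52 ± 0.13 (SE; limma adjusted p = 0.0449), or from 542 ± 79.5 to 777 ± 97.3 (mean ± SD, n = 3 per genotype). Its adjusted p was 0.0197 without WT replicate 1, with a log2 fold change of 0.40. Leaving out WT replicate 2 ended the call (adjusted p = 0.0713), as did leaving out replicate 2 or 3 of Lcn10-KO (0.130 and 0.142). Exons of *Acsl3* overlap those of *Utp14b* on the same strand, so the 2 genes can share reads. *Utp14b* was at 199 ± 37.1 in WT and 214 ± 6.55 in Lcn10-KO (SD, n = 3) and did not pass (0.12 ± 0.12).

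*Acsf2* (ENSMUSG00000076435.3, chromosome 11, 94557102 to 94601871, GRCm38), a mitochondrial acyl-CoA synthetase of a separate family, had the largest difference among the 32. Its 3 WT libraries held 118, 143 and 130.1 normalized counts and its 3 Lcn10-KO libraries 180.1, 191 and 225. Again every Lcn10-KO library was above every WT library. *Acsf2* rose 1.53-fold, from 130.2 ± 12.5 to 199 ± 23.3 (mean ± SD, n = 3 per genotype; log2 fold change 0.60 ± 0.12, adjusted p = 0.0119). The call was kept without any 1 WT library (adjusted p = 0.00788 without WT replicate 1) and lost without Lcn10-KO replicate 2 or 3 (adjusted p = 0.0581 and 0.0728).

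The other 3 synthetases did not pass the test. *Acsl5*, found on mitochondria and the endoplasmic reticulum, was the most abundant synthetase among the members per transcript length. It had WT values of 4030.5, 3899.9 and 3945 and Lcn10-KO values of 3672, 3637 and 3730.1. *Acsl1*, a major synthetase of fat and muscle that macrophages induce on inflammatory stimulation, had 1184, 1163 and 1113 in WT and 1039, 1056 and 1026 in Lcn10-KO. In both genes all 3 Lcn10-KO libraries were below all 3 WT libraries, yet neither was called (-0.11 ± 0.04, adjusted p = 0.1101, and -0.15 ± 0.05, adjusted p = 0.0738). Exons of *Acsl5* overlap those of *Zdhhc6* on the opposite strand. *Acsl4*, which prefers arachidonic acid, overlapped between genotypes at 2760.4 to 2905 in WT and 2563 to 2769 in Lcn10-KO. Per transcript length, *Acsl3* made up 6.07%, 7.50% and 8.10% of the summed *Acsl1*, *Acsl3*, *Acsl4* and *Acsl5* signal in the WT libraries and 9.31% to 11.8% in the Lcn10-KO libraries. *Acsl5* made up 49.1% ± 1.07 of it in WT and 47.2% ± 0.469 in Lcn10-KO (SD, n = 3).

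The carnitine shuttle showed little difference. *Cpt1a*, which commits long-chain acyl groups to the mitochondrion and is inhibited by malonyl-CoA, was at 2773, 2655 and 2710.4 in WT and 2646, 2607 and 2772 in Lcn10-KO. These ranges overlapped, and the 95% interval of the ratio of Lcn10-KO to WT ran from 0.924 to 1.05. *Cpt2*, which hands the acyl group back to coenzyme A on the inner membrane, was at 359.9, 461 and 435 in WT and at 462 in each of the 3 Lcn10-KO libraries. Its low WT mean came from WT replicate 1, and without that library the log2 fold change was 0.05 in place of 0.15. Neither gene passed the test in any alternative that was run.

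The 4 acyl-CoA dehydrogenases, which take the first step of each round on chains of different length, gave 0 calls. *Acadl*, for long chains, was at 1782, 1835 and 1871 in WT and 1912, 2119 and 2109.6 in Lcn10-KO, without overlap (0.16 ± 0.05, adjusted p = 0.0616). *Acads*, for short chains, had 800.0 to 837 in WT and 854 to 911 in Lcn10-KO, also without overlap (0.11 ± 0.05, adjusted p = 0.214). *Acadm*, for medium chains, was nearly level, at 1787 ± 44.8 in WT and 1784 ± 28.5 in Lcn10-KO (SD, n = 3), and its ratio had a 95% interval of 0.934 to 1.07. *Acadvl*, for very long chains, had 1306 ± 68.1 and 1264 ± 27.1, and it shares exon sequence with *Dvl2* on the opposite strand, whose reads cannot be told apart where the strand setting is not given. The 95% intervals of all 4 lay between 20% below and 25% above WT, which are the same factor down and up.

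The next steps of the cycle gave 0 calls among 5 genes, with 4 of the 5 log2 fold changes above 0. *Hadha* and *Hadhb*, the alpha and beta subunits of the mitochondrial trifunctional protein, lie head to head on chromosome 5 with starts 86 bases apart. *Hadha* was at 3304, 3499 and 3563 in WT and 3724, 3742 and 3753 in Lcn10-KO, and *Hadhb* at 2310.1, 2483 and 2385 and at 2646, 2631 and 2631. In both subunits the Lcn10-KO libraries were all above WT and closer together than the WT libraries, and neither passed (0.11 ± 0.04, adjusted p = 0.106, and 0.14 ± 0.04, adjusted p = 0.0569). *Hadhb* was called when WT replicate 2 was left out (adjusted p = 0.0308). *Echs1*, the short-chain enoyl-CoA hydratase, came nearest to a call among the 29 members not past the threshold, with 1044, 1035 and 1061 in WT and 1113, 1207 and 1241 in Lcn10-KO (0.18 ± 0.05, adjusted p = 0.0514). Its exons overlap *Paox* on the opposite strand. *Hadh*, the short-chain hydroxyacyl-CoA dehydrogenase, and *Acaa2*, the mitochondrial thiolase, overlapped between genotypes, with log2 fold changes of -0.01 ± 0.05 and 0.03 ± 0.06.

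Enzymes that deal with the double bonds of unsaturated fatty acids gave 0 calls among 3. *Decr1*, the mitochondrial dienoyl-CoA reductase, was at 606, 628 and 631 in WT and 697, 708 and 692 in Lcn10-KO, and *Eci2*, an enoyl-CoA isomerase, at 479, 507 and 505 and at 542, 564 and 597. Both were without overlap, with adjusted p of 0.0695 and 0.0746. *Eci1*, the other isomerase, had 274 to 305 in WT and 272 to 311 in Lcn10-KO. The 3 genes of electron transfer were also without a call. *Etfa* and *Etfb*, which form the flavoprotein, had log2 fold changes of 0.09 ± 0.04 and -0.06 ± 0.05, and *Etfdh*, the oxidoreductase that passes the electrons to ubiquinone, 0.03 ± 0.05. *Etfa* was higher in every Lcn10-KO library (1816 to 1867, against 1711 to 1766 in WT), and the ranges of the other 2 overlapped. Exons of *Etfdh* overlap those of *4930579G24Rik* on the opposite strand.

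**Figure D2:**
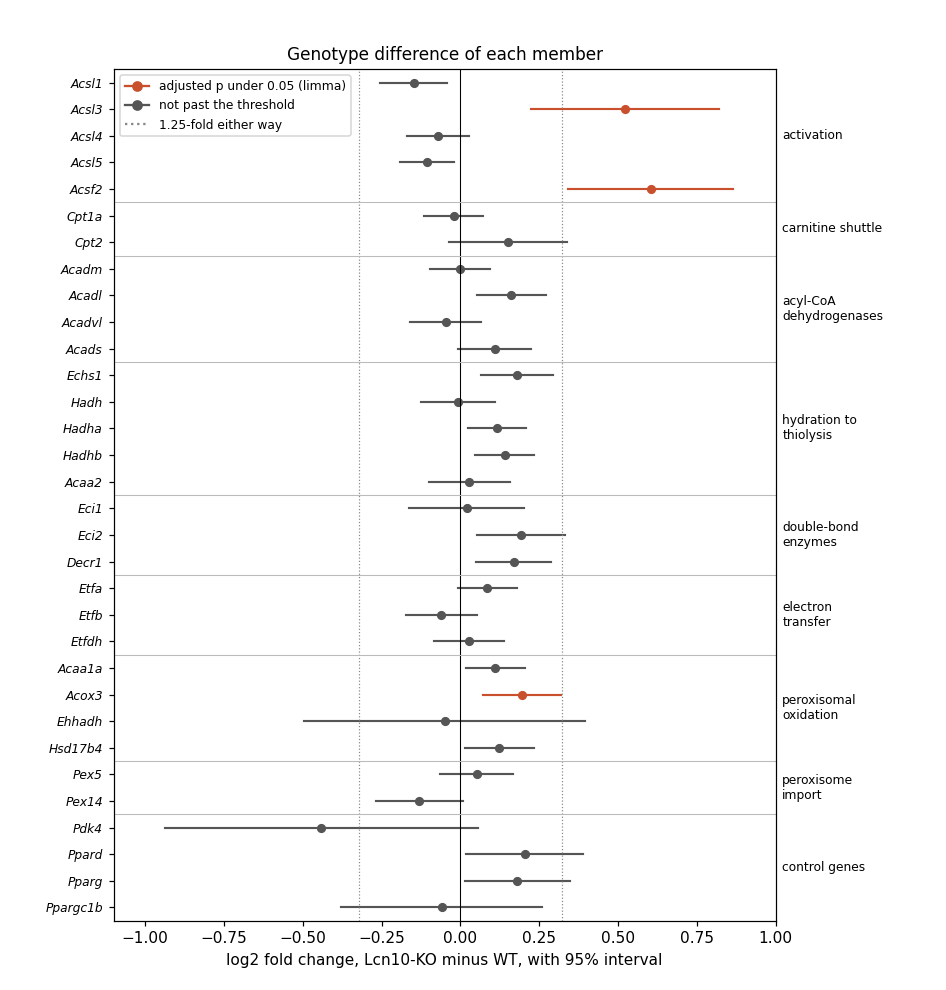
Points are log2 fold changes (Lcn10-KO minus WT) from limma and bars their 95% intervals, for the 32 tested members, with dotted lines at 20% below and 25% above WT and the 3 called genes in red. The intervals of 23 genes lie within the dotted lines, and *Pdk4* and *Ehhadh*, the least abundant of the tested members, have the widest.

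In the peroxisome, *Acox3* (ENSMUSG00000029098.17, chromosome 5, 35583040 to 35615352, GRCm38) was called. It was at 1835, 2169 and 2074 in WT and at 2298, 2325 and 2323 in Lcn10-KO. The Lcn10-KO libraries were nearly level, whereas WT replicate 1 lay well under the other WT libraries. *Acox3* rose by 0.20 ± 0.06 (adjusted p = 0.0485), and without WT replicate 1 the difference was 0.13 and the call was lost (adjusted p = 0.0804). Leaving out WT replicate 3 also ended it (adjusted p = 0.0741), as did leaving out replicate 1, 2 or 3 of Lcn10-KO (0.119, 0.167 and 0.150). *Hsd17b4*, the bifunctional enzyme for branched and very long chains, had 2776, 3106 and 3120.0 in WT and 3218, 3259 and 3320.4 in Lcn10-KO. *Acaa1a*, the peroxisomal thiolase, had 1532, 1540.0 and 1550.2 in WT and 1656, 1692 and 1642 in Lcn10-KO. Both kept the genotypes apart but did not pass (adjusted p = 0.137 and 0.127). Without WT replicate 1 the log2 fold change of *Hsd17b4* was 0.07 in place of 0.12. *Acaa1a* has a close copy, *Acaa1b*, which was listed at no more than 4.16 in any library, and its exons overlap *Myd88* on the opposite strand. *Ehhadh*, the other bifunctional enzyme, was low, at 43.2 ± 2.99 and 42.1 ± 7.71 (SD, n = 3). Its 95% interval of the ratio, 0.710 to 1.31, was among the widest of the members.

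Neither gene of protein import passed the test. *Pex14*, a docking protein of the peroxisome membrane, had 520.1, 568 and 549 in WT and 510.3, 505 and 479 in Lcn10-KO, lower in every library but not past the threshold (-0.13 ± 0.06, adjusted p = 0.216). *Pex5*, the receptor that carries enzymes to it, had 910.3 to 1006 and 975 to 999, within the spread of WT.

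Among the control genes, the PPARs differed widely in level. *Ppara*, the receptor that governs fatty acid oxidation in liver, was listed at 0 in 5 libraries and at 1.14, the value of a single read, in WT replicate 2, and it was the member that was not tested. *Pparg*, the macrophage and fat cell receptor, was the most abundant, at 875 ± 100.3 normalized counts per kb of transcript in WT and 989 ± 47.1 in Lcn10-KO, and *Ppard*, the widely expressed receptor, was at 86.2 ± 8.66 and 99.0 ± 1.37 (SD, n = 3). In unscaled normalized counts, *Pparg* was at 1384, 1735 and 1521 in WT and 1839.8, 1679 and 1722 in Lcn10-KO. *Ppard* had 259, 314 and 274 in WT and 319.8, 329 and 325 in Lcn10-KO. WT replicate 2 reached into the Lcn10-KO range for *Pparg* and fell just short of it for *Ppard*. Neither receptor passed the test (0.18 ± 0.08, adjusted p = 0.160, and 0.20 ± 0.09, adjusted p = 0.155). Without WT replicate 1, the lowest library of both, the differences were 0.10 for *Pparg* and 0.14 for *Ppard* (adjusted p = 0.315 and 0.360). Without WT replicate 2, the highest WT library of both, they were 0.27 and 0.28 and both were called (adjusted p = 0.0123 and 0.0476).

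*Pdk4*, the pyruvate dehydrogenase kinase that holds back glucose use when fat is burned and a common target of PPARs, was at 59.5, 44.3 and 54.4 in WT and 52.1, 30.4 and 35.3 in Lcn10-KO. It did not pass (-0.44 ± 0.23, adjusted p = 0.245), and its interval of the ratio ran from 0.522 to 1.04. Without Lcn10-KO replicate 2, its lowest library, the log2 fold change was -0.28. *Ppargc1b*, a coactivator of mitochondrial genes, had 93.1 to 113 in WT and 84.1 to 109.9 in Lcn10-KO, which overlap.

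**Figure D3:**
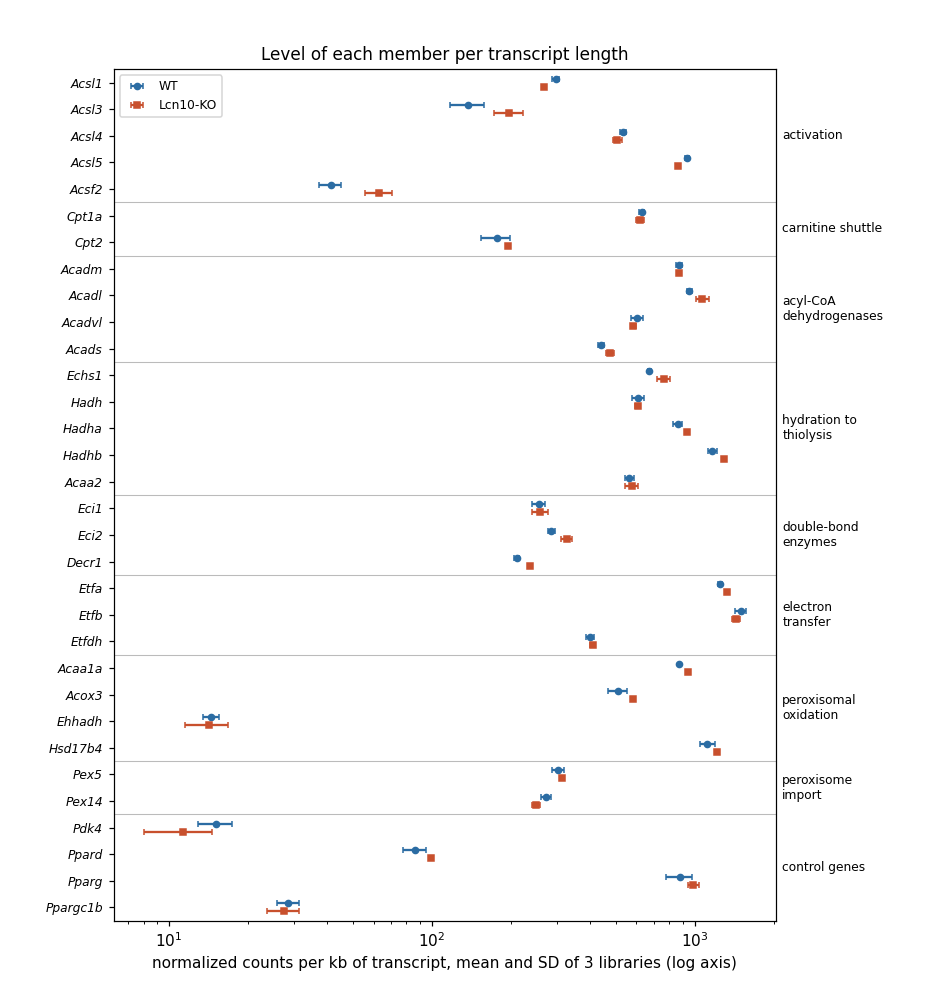
Normalized counts per kb of transcript on a log axis, as the mean and SD of 3 libraries, for WT (blue circles) and Lcn10-KO (red squares). In WT, levels run from 14.5 for *Ehhadh* to 1493 for *Etfb*, and the squares of *Acsl3* and *Acsf2* lie clearly to the right of their circles.

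As a list, the 32 genes had a median log2 fold change of 0.07, against 0.00 over all tested genes. Of the 32, 20 were above 0 (62.5%, against 49.7% of all tested genes). Without WT replicate 1 the median was 0.03. The libraries of the genotypes did not overlap in 18 of 32 members, 15 with all Lcn10-KO libraries above and 3 below, against 32.4% of all tested genes (15.5% above and 16.9% below). At an unadjusted p under 0.05 there were 15 of 32 members, 13 higher and 2 lower, against 26.3% of all tested genes (12.4% higher and 13.9% lower). The 95% intervals of 23 of the 32 lay between 20% below and 25% above WT, against 59.3% of all tested genes. These shares describe a list chosen with earlier results of these data known and carry no test. With replicate 2 or 3 of Lcn10-KO left out, limma called 0 members, and 10 or 11 had an unadjusted p under 0.05. With WT replicate 2 left out it called 5, and 17 had an unadjusted p under 0.05. Over all genes the count of calls was 1190, and 566, 207 and 175 when replicate 1, 2 or 3 of Lcn10-KO was left out.

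**Figure D4:**
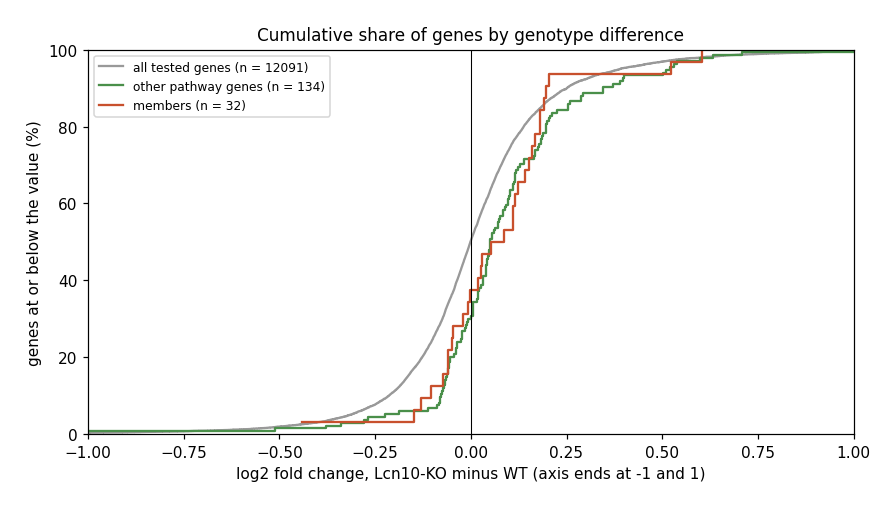
Cumulative share of genes, in percent, against the log2 fold change (Lcn10-KO minus WT) for all 12091 tested genes (grey), the 134 other pathway genes (green) and the 32 members (red). Both pathway curves lie to the right of the grey one around 0. Above 0 were 20 of 32 members and 94 of 134 other pathway genes, against 49.7% of all tested genes.

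The pathway genes outside the 33 were taken from lists of 155 genes, of which 134 were tested. Of these, 11 rose and 4 fell. The share called was 11.2%, near the 9.84% of all tested genes (4.70% higher and 5.14% lower). The median log2 fold change of these 134 genes was 0.05, and no test was run over any of the lists. In the carnitine list (8 tested, 1 higher), *Crat*, the mitochondrial carnitine acetyltransferase, rose from 1365 ± 62.4 to 1596 ± 61.3 normalized counts (SD, n = 3 per genotype; 0.23 ± 0.05, adjusted p = 0.0193). *Cpt1b*, the muscle form, was listed at 0 in WT replicate 2 and at 34.4 to 48.3 in the other 5 libraries, so no fold is given. The list of synthetases, thioesterases and acyl-CoA-binding proteins (16 tested) had 1 gene higher and 2 lower. *Acss1*, which activates acetate in mitochondria, was at 376, 442 and 396 in WT and 495, 611 and 643 in Lcn10-KO and rose by 0.52 ± 0.10. The thioesterases *Acot7* and *Acot11*, which cleave acyl-CoA back to the free acid, dropped by 0.38 ± 0.09 and 0.28 ± 0.07 in log2 terms.

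In the list of mitochondrial oxidation (21 tested, 2 higher), *Ech1*, which moves double bonds, and *Mcee*, of propionate breakdown, rose by 0.18 ± 0.05 and 0.29 ± 0.07. The peroxisomal list had 29 tested genes with 2 higher. For both lists, the share called higher over all tested genes was 4.70%. *Idh1*, the cytosolic and peroxisomal isocitrate dehydrogenase that makes NADPH, was at 2863, 3691 and 3746.5 in WT and 4702, 4671 and 5201 in Lcn10-KO and rose by 0.51 ± 0.11 (adjusted p = 0.0402). Without WT replicate 1, its lowest library, *Idh1* kept its call with a difference of 0.38. *Abcd3*, a transporter of the peroxisome membrane, rose by 0.18 ± 0.05, a call lost without WT replicate 1 (adjusted p = 0.0956). None of 14 tested peroxins passed limma's adjusted threshold, and 2 had an unadjusted p under 0.05, both higher. Over all tested genes 26.3% had such a p, made up of 12.4% higher and 13.9% lower in Lcn10-KO.

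For comparison with the lists below, 4.70% of all tested genes were called higher and 5.14% lower. A list of PPAR partners, cofactors and other regulators of lipid genes (16 tested) had 1 gene higher and 1 lower. The gene that rose was *Nr1h3*, the liver X receptor alpha, by 0.40 ± 0.08. *Ppargc1a*, the coactivator best known from muscle and liver, was listed at no more than 4.25. Of 13 tested PPAR targets, 2 were higher, *Fabp4* and *Fabp5*, both fatty acid-binding proteins. *Plin2*, the lipid droplet coat, and *Cd36*, the fatty acid transporter, were abundant and not past the threshold (-0.06 ± 0.04 and 0.11 ± 0.05). Of 13 genes that control or form pyruvate dehydrogenase or carry pyruvate into the mitochondrion, 1 was higher. It was *Pdp1*, the phosphatase that acts against the kinases (648, 824 and 844 in WT, 983, 998 and 1035 in Lcn10-KO, 0.39 ± 0.09). In the ketone body list (6 tested), *Oxct1*, which activates ketone bodies for use, rose by 0.29 ± 0.06, and *Bdh2*, a dehydrogenase of the same list, fell by 1.05 ± 0.24, from 82.7, 52.4 and 71.7 in WT to 43.7, 30.5 and 25.0 in Lcn10-KO. Of the 15 called genes, only *Fabp4* and *Fabp5* were past the threshold when replicate 2 or replicate 3 of Lcn10-KO was left out, and 7 genes were when replicate 1 was. *Acot11* also lost its call without WT replicate 1 (adjusted p = 0.0638), and *Ech1* without WT replicate 2 (0.0704). Without WT replicate 3 the calls of *Abcd3*, *Acot7*, *Acot11* and *Bdh2* were lost (0.0597, 0.0776, 0.0673 and 0.0586).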

How the data were processed

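Normalized read counts of 6 libraries were used as the authors deposited them. The deposited values are a signal scaled between libraries, not whole numbers, and between 86.3% and 90.3% of values under 20 were whole multiples of a read within 0.1 reads, so no test on reads was run. The build was mm10 and the software comprised Salmon 0.11.2, STAR 2.6.1a, DESeq2 and bcl2fastq, per the submitters' processing notes, which assign no roles. The annotation and strand setting behind the values: not given in the sources used here. Columns were matched by library name. Genes with at least 10 in at least 3 libraries were fitted on genotype alone as log2(value + 1), using limma 3.58.1 (R 4.3.3) with its trend and robust options, and p-values were adjusted over all tested genes. The procedure was tested on simulated data. The members and lists were chosen with earlier results of these data known. All 33 members, and from each other list up to 4 called genes by p, are named, apart from a result that is not reported here. Other named genes, and the core-site sequences shown, were picked after their values or matches were seen. *Mmut* was matched by its older symbol, *Mut*. Positions and the principal transcript's length came from GENCODE for GRCm38, the assembly of mm10, and promoters from RefSeq. Depth cannot be turned into intervals for single values, and 95% intervals are limma's, unadjusted. Alternatives were other scalings, filters, pseudocounts, no trend, a replicate block and each library left out. Figures were drawn with matplotlib 3.10.9.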

Additional observations from a re-analysis of the deposited data

How the results depend on the processing

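Limma without the trend called 14 genes in all, 0 of the 32 members (13 at an unadjusted p under 0.05) and 0 of the 134 other pathway genes (33 at an unadjusted p under 0.05). Called members numbered 5 under quantile normalization, where *Acadl*, *Echs1* and *Hadhb* were added and *Acsl3* lost, and 1, *Acsf2*, with no filter on low values. With each library left out in turn, 0 to 5 members, 175 to 1664 genes in all and 2 to 19 other pathway genes were called, and the members' median log2 fold change was 0.033 to 0.097. The replicate numbers share no stated origin, and the main test did not pair them. Deviations of same-numbered libraries correlated weakly, at 0.038, 0.073 and 0.014. Only WT replicate 3 correlated better with another number, at 0.026 with Lcn10-KO replicate 1. A replicate block gave 5 called members and 1607 genes. Under it the limma adjusted p was 0.000132 for *Acsl3*, 0.00412 for *Acsf2* and 0.0251 for *Acox3*. All 3 called members were higher in Lcn10-KO in each of the 14 alternatives. Of the 29 members without a call, 5 were called in at least 1 alternative and 6 changed sign in at least 1, all by less than the spread between replicates. Rescaling by the median ratio and pseudocounts of 0.5 and 10 kept the count of called members at 3, and a stricter filter gave 4. Low counts limit *Pdk4*, *Ehhadh* and *Ppargc1b*, and the 95% interval of each of these 3 reached outside the range from 20% below to 25% above WT.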
